A study of Capra hircus with 7 samples.

Results

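Fatty acid oxidation and peroxisome genes were followed by RNA-seq in mammary gland cells of Capra hircus, from Lanshan dairy goats, kept in 3D culture (7 libraries). The list holds 35 genes of mitochondrial beta-oxidation, peroxisomal oxidation, peroxisome assembly and their nuclear regulators, matched to the deposited table by gene symbol. Of these, 33 were found among the 17374 genes of the table, and ACADM and ACAD10 had no match. CPT1B stayed below the expression filter (at least 1 FPKM, fragments scaled to transcript length and library size, in at least 2 libraries), so 32 of the 12180 genes tested were members. Of the tested members, 16 encode mitochondrial proteins, 12 encode peroxisomal proteins and 3 are nuclear regulators, while ECI2, whose protein is found in both organelles, was kept apart.

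The study altered cirRNA28250, a circular RNA, by virus. Knockdown libraries are named cKDmix (2 libraries) and overexpression libraries cRNA28250 (2 libraries). The design lists c3NC (2 libraries) beside the knockdown and c5NC beside the overexpression, and each served here as the control of the group it is listed with. c5NC holds 1 library, which carries the replicate number 2. All groups were of the same breed and tissue. The labels do not spell out 3NC, 5NC or mix, give no age of the animals, and leave unsaid whether the replicates of a group are separate cultures or animals. The p-values therefore rest on differences between libraries that may be technical only. The circular RNA itself was not analysed here, so its level in each group was not checked.

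Mitochondrial beta-oxidation takes fatty acids in as carnitine esters and shortens them in a cycle of dehydrogenation, hydration, a further dehydrogenation and thiolysis, with electrons passed to the respiratory chain through the electron transfer flavoprotein. Peroxisomes shorten very-long-chain and branched fatty acids with their own set of enzymes, and peroxins import those enzymes and build the organelle. The nuclear receptors PPARA and PPARD, with the coactivator PPARGC1A, switch on genes of both pathways. In the mammary gland, fatty acids are mainly built into milk fat, and oxidation is better known from heart, liver and muscle.

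Fibroblast markers were abundant as a sum in all libraries, and markers of luminal, milk-secreting epithelium were near 0. All 9 fibroblast markers passed the filter, with summed levels of 13743 and 13039 FPKM in cKDmix, 21202 and 22446 FPKM in c3NC, 19797 and 18361 FPKM in cRNA28250 and 16660 FPKM in c5NC. Of 9 luminal epithelial markers, 6 were in the table and 0 passed the filter, and EPCAM, an epithelial adhesion molecule, stood at 0.02 FPKM or less in every library. The summed luminal markers ran from 0.39 to 1.72 FPKM in 6 libraries and stood at 5.95 FPKM in c5NC, where KRT19, a keratin, accounted for 5.53 FPKM. Of the adipocyte markers, ADIPOQ, PLIN1 and LPL stayed below 1 FPKM in all libraries, whereas the lipid droplet genes CIDEA and CIDEC stood at 9.95 to 23.92 and 3.02 to 14.71 FPKM. Of the basal or myoepithelial markers, ACTA2 and MYLK stood at 63.51 to 833.72 and 15.89 to 384.39 FPKM. KRT5 and TP63 stayed below 1 FPKM, and KRT14 and OXTR reached at most 4.22 and 1.60 FPKM. Of the macrophage markers, CD14 and CD68 stood at 44.03 to 217.68 and 5.86 to 19.36 FPKM, while PTPRC, CSF1R, MRC1 and AIF1 stayed below 1 FPKM. The number of genes at 1 FPKM or more ran from 10896 to 11870 per library, and the depth of sequencing is unknown. The replicates of cRNA28250 differed more from each other (SD of the log2 difference 0.585) than those of cKDmix (0.306) or c3NC (0.3).

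Genes of mitochondrial oxidation were the most abundant members. HADHA and HADHB, the alpha and beta subunits of the mitochondrial trifunctional protein, averaged 126 and 115 FPKM over the 7 libraries, and ETFB, the beta subunit of the electron transfer flavoprotein, averaged 105 FPKM. The 9 highest members were all mitochondrial, and HSD17B4, the peroxisomal D-bifunctional enzyme, ranked 10 at 35.9 FPKM. The 16 mitochondrial genes had a median level of 37.8 and 32.3 FPKM in cKDmix, 37.6 and 36.1 FPKM in c3NC, 36.6 and 33.2 FPKM in cRNA28250 and 41.9 FPKM in c5NC. The 12 peroxisomal genes had a median of 8.77 and 8.48 FPKM in cKDmix, 6.38 and 7.27 FPKM in c3NC, 7.23 and 11.1 FPKM in cRNA28250 and 8.35 FPKM in c5NC. Mitochondrial members were thus the more abundant class in every library. CPT1A, the liver-type isoform of the enzyme that commits fatty acids to mitochondrial import, stood at 24.8 to 52.0 FPKM, whereas CPT1B, the muscle-type isoform, reached at most 0.14 FPKM. The regulators were low, with PPARD at 2.97 to 7.11, PPARA at 0.93 to 2.98 and PPARGC1A at 0.13 to 2.10 FPKM.

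**Figure D1:**
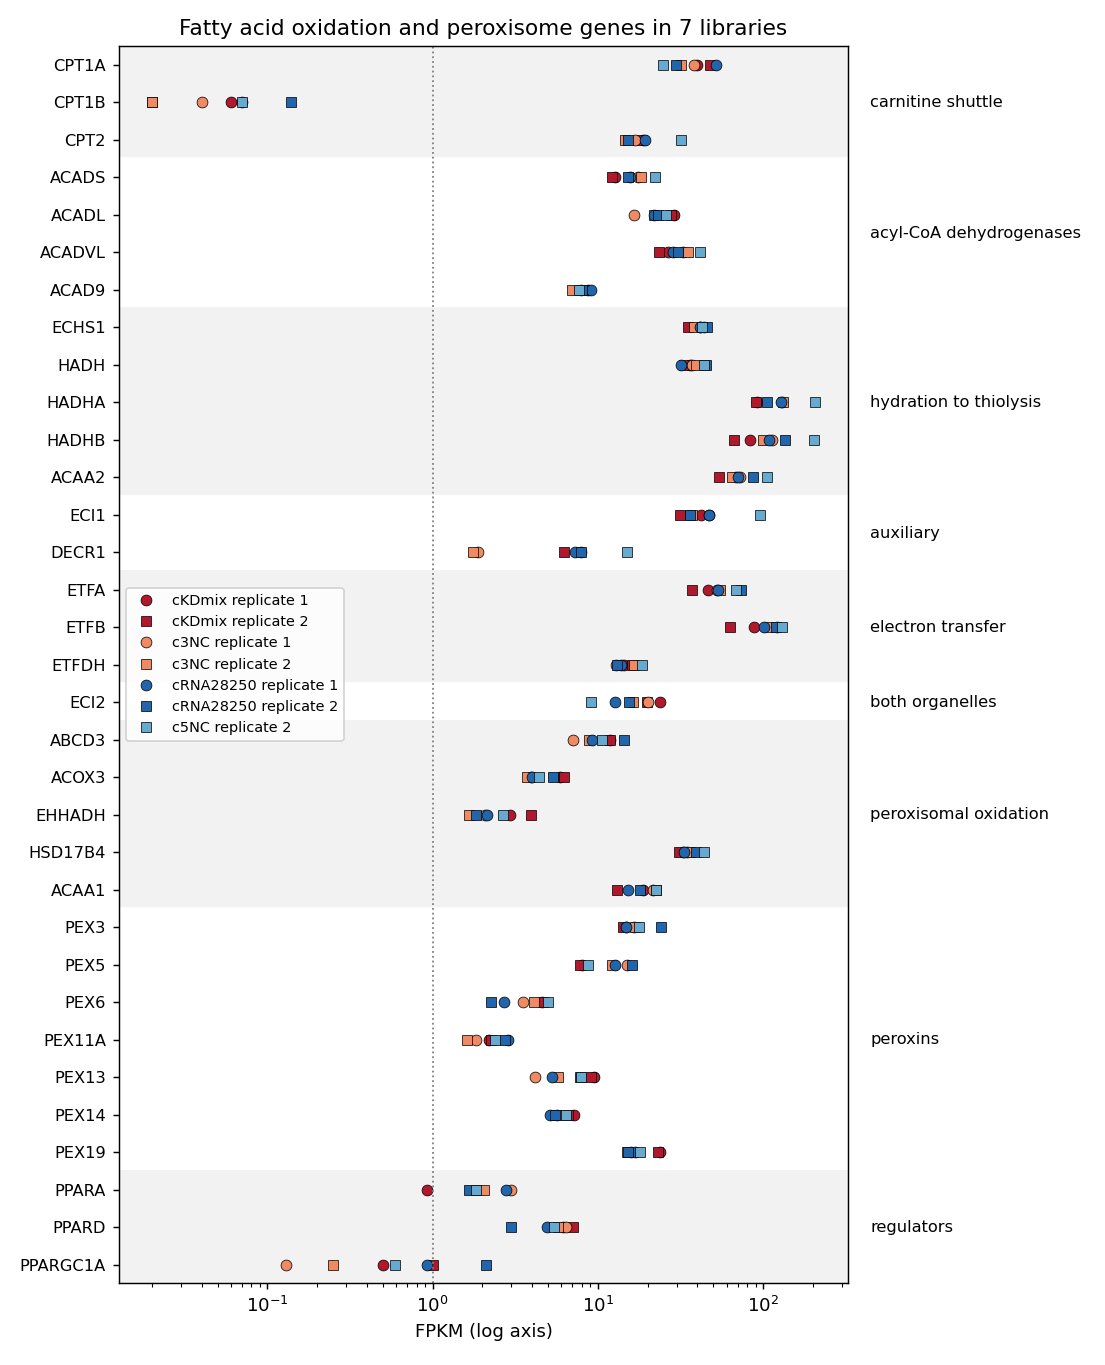
FPKM (log axis) of the 33 members in the table, 1 row per gene grouped by role, with 1 symbol per library (colour for the group, circle and square for replicates 1 and 2) and a dotted line at 1 FPKM. HADHA, HADHB and ETFB lie highest, CPT1B stays at or below 0.14 FPKM, and the c5NC square stands apart to the right for HADHA, HADHB, ECI1, CPT2 and DECR1.

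Setting cKDmix against c3NC addresses which of these transcripts changed when cirRNA28250 was knocked down. DECR1, the mitochondrial dienoyl-CoA reductase, was higher in cKDmix, as were PEX13 and PEX19, which serve protein import and membrane assembly of peroxisomes, and PEX5, the import receptor for enzymes of the peroxisome interior, was lower. The other 28 tested members did not pass the threshold, an adjusted p of 0.05 in limma with Benjamini-Hochberg correction. The 4 calls among 32 members stand beside 34.4% of all genes called in this contrast. By direction, 3 of 32 were higher, against 26.8% of all genes, and 1 was lower, against 7.56%. In bulk RNA, fewer cells of a type and less RNA per cell cannot be told apart.

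DECR1 (NCBI Gene 102191818), which lets polyunsaturated fatty acids enter the cycle, stood at 7.88 and 6.25 FPKM in cKDmix, against 1.89 and 1.75 FPKM in c3NC. The 4 libraries did not overlap between groups, with higher values in cKDmix, as was so for 55.2% of all genes tested. A further 22.8% did not overlap with lower values. The means of 7.06 ± 1.15 and 1.82 ± 0.099 FPKM (SD, n = 2 each) differed by a factor of 3.88. On the log2(FPKM + 1) scale, which understates changes of low genes, the change was 1.51 ± 0.20 (SE; limma, Benjamini-Hochberg adjusted p = 0.00409). The low libraries were those of c3NC, since DECR1 stood at 7.30 and 7.95 FPKM in cRNA28250 and at 14.97 FPKM in c5NC. Between the controls, c3NC was lower than c5NC by a log2 difference of −2.50 ± 0.24 (limma, adjusted p = 0.00171), the only member called in that comparison, where 5.80% of all genes were called and 3.07% were called lower. Set against c5NC instead of c3NC, cKDmix was lower for DECR1 (log2 change −0.99, limma adjusted p = 0.0267). The direction in the knockdown therefore depended on which control was used. Without cKDmix replicate 1 or 2 the change against c3NC was 1.36 or 1.66 and was no longer called (limma adjusted p = 0.0534 and 0.0692).

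PEX5 (NCBI Gene 102186938) stood at 8.02 and 7.83 FPKM in cKDmix, against 15.05 and 12.13 FPKM in c3NC, a log2 change of −0.70 ± 0.20 (SE; limma, adjusted p = 0.0322). Both cKDmix libraries lay below both c3NC libraries, as for 22.8% of all genes tested. PEX13 (NCBI Gene 102169877), a membrane protein of the docking complex that PEX5 binds, had 9.53 and 9.14 FPKM in cKDmix, against 4.17 and 5.70 FPKM in c3NC, a log2 change of 0.81 ± 0.24 (limma, adjusted p = 0.0334). PEX19 (NCBI Gene 102184210), the carrier of newly made peroxisomal membrane proteins, had 23.71 and 23.13 FPKM in cKDmix, against 15.76 and 14.98 FPKM in c3NC, a log2 change of 0.58 ± 0.17 (limma, adjusted p = 0.0355). The receptor and its docking partner thus moved in opposite directions. The median of all tested genes was itself 0.30 higher in cKDmix, and with scaling between libraries PEX13 and PEX19 lost their calls (limma adjusted p = 0.234 and 0.16 with quantile normalization, 0.113 and 0.333 with median ratio scaling). PEX5 kept its call with both scalings at log2 changes of −1.07 and −1.02. Leaving out any of the 4 libraries compared ended all 3 calls, with limma adjusted p from 0.0774 to 0.218. With c5NC as the control the log2 changes were −0.13 for PEX5, 0.21 for PEX13 and 0.37 for PEX19 (limma adjusted p = 0.725, 0.622 and 0.222).

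The remaining peroxins differed by less. PEX14, the other docking protein, had 7.21 and 6.57 FPKM in cKDmix, against 5.69 FPKM in both c3NC libraries. PEX6, an ATPase that recycles the import receptor, had 4.59 and 4.67 FPKM in cKDmix, against 3.53 and 4.13 FPKM in c3NC. PEX11A, which promotes peroxisome division, had 2.19 and 2.25 FPKM in cKDmix, against 1.82 and 1.62 FPKM in c3NC. All 3 had higher values in both cKDmix libraries, as was so for 55.2% of all genes tested. Their log2 changes were 0.22 to 0.24, below the shift of all genes, and none was called (limma adjusted p from 0.339 to 0.397). With quantile normalization all 3 turned negative, at −0.28 to −0.23. PEX3, the membrane anchor for PEX19, overlapped between groups, at 16.48 and 14.26 FPKM in cKDmix and 14.82 and 16.75 FPKM in c3NC.

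Peroxisomal transport and oxidation genes lay partly higher and partly lower in cKDmix, and none was called in the fit of all libraries without scaling. With only the cKDmix and c3NC libraries in the fit, EHHADH, ACOX3 and ABCD3 were called higher. That fit also called more genes in all. EHHADH, the L-bifunctional enzyme, had 2.96 and 3.96 FPKM in cKDmix, against 2.08 and 1.67 FPKM in c3NC (log2 change 0.63 ± 0.21, limma adjusted p = 0.0543). ACOX3, an oxidase for branched-chain acyl-CoA, had 5.87 and 6.20 FPKM in cKDmix, against 3.92 and 3.74 FPKM in c3NC, and ABCD3, a fatty acid transporter of the peroxisomal membrane, had 11.77 and 11.85 FPKM, against 7.08 and 8.83 FPKM. These 3 genes did not overlap between groups, with higher values in cKDmix, as was so for 55.2% of all genes tested. HSD17B4 had 32.83 and 30.98 FPKM in cKDmix, against 34.46 and 36.15 FPKM in c3NC. ACAA1, the peroxisomal thiolase, had 18.68 and 13.12 FPKM in cKDmix, against 21.46 and 22.33 FPKM in c3NC (limma adjusted p = 0.133). For HSD17B4 and ACAA1 both cKDmix libraries lay below both c3NC libraries, as for 22.8% of all genes tested.

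Among mitochondrial genes, the subunits of the trifunctional protein and of the electron transfer flavoprotein had lower values in both cKDmix libraries. That was so for 22.8% of all genes tested. None of these subunits was called against c3NC in the fit of all libraries without scaling. With c5NC as the control HADHA and HADHB were called lower. HADHA had 91.88 and 90.41 FPKM in cKDmix, against 129.57 and 131.65 FPKM in c3NC (log2 change −0.51 ± 0.19, limma adjusted p = 0.0732). HADHB had 83.66 and 66.98 FPKM in cKDmix, against 112.30 and 99.94 FPKM in c3NC (log2 change −0.50 ± 0.22, adjusted p = 0.109). The genes of the trifunctional protein are neighbours in the RefSeq gene table of assembly ARS1.2, with no other protein-coding gene starting between them, and their log2 changes were alike in size here, although neither was called. ETFB had 87.99 and 62.58 FPKM in cKDmix, against 121.95 and 107.21 FPKM in c3NC (log2 change −0.62 ± 0.23, limma adjusted p = 0.0705), and its partner ETFA had 46.38 and 37.16 FPKM, against 52.57 and 54.51 FPKM. ETFDH, which hands the electrons on to ubiquinone, overlapped between groups, at 14.39 and 16.00 FPKM in cKDmix and 12.90 and 16.45 FPKM in c3NC.

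The acyl-CoA dehydrogenases, which open each cycle and differ in the chain length they accept, did not share a direction. ACADS, for short chains, had 12.68 and 12.18 FPKM in cKDmix, against 17.52 and 18.36 FPKM in c3NC (log2 change −0.50 ± 0.17, limma adjusted p = 0.0544). ACADVL, for very long chains, had 26.72 and 23.34 FPKM in cKDmix, against 32.67 and 34.89 FPKM in c3NC. ACADL, for long chains, lay the other way, at 28.96 and 27.73 FPKM in cKDmix, against 16.49 and 21.87 FPKM in c3NC (log2 change 0.55 ± 0.19, adjusted p = 0.0597). None of these 3 overlapped between groups, as was so for most genes tested, and none was called. With only the cKDmix and c3NC libraries in the fit, ACADL was called higher and ACADS and ACADVL lower, as were HADHA, HADHB and ETFB. ACAD9, an assembly factor of respiratory complex I, had 8.69 and 8.26 FPKM in cKDmix, against 7.91 and 6.93 FPKM in c3NC. With quantile normalization ACADS and PPARA were called lower, and with median ratio scaling HADHA, HADHB, ETFA, ETFB, ACADS, ACADVL, ACAA1 and PEX5 were called lower and DECR1 higher, 9 members in all. In that contrast scaling moved the share of higher calls among all called genes from 78.0% to 49.1% (quantile) and 51.3% (median ratio).

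Import genes and several later steps of the cycle had small differences. CPT1A had 39.51 and 47.67 FPKM in cKDmix, against 38.14 and 31.89 FPKM in c3NC, and CPT2, which rebuilds acyl-CoA inside the mitochondrion, had 18.73 and 18.52 FPKM, against 16.78 and 14.56 FPKM. The log2 changes of CPT1A and CPT2, 0.31 ± 0.28 and 0.24 ± 0.19 (limma adjusted p = 0.414 and 0.36), were near the shift of all genes. ECHS1, HADH, ACAA2 and ECI1, which hydrate, oxidise, cleave and isomerise the intermediates, had log2 changes between −0.20 and −0.10 (limma adjusted p from 0.53 to 0.695). ECI2, an isomerase of both organelles, had 23.75 and 19.69 FPKM in cKDmix and 20.17 and 16.42 FPKM in c3NC, which overlapped. Of the regulators, PPARA had 0.93 and 1.83 FPKM in cKDmix, against 2.98 and 2.06 FPKM in c3NC (log2 change −0.58 ± 0.28, adjusted p = 0.148). PPARGC1A had 0.50 and 1.01 FPKM in cKDmix, against 0.13 and 0.25 FPKM in c3NC, and PPARD overlapped between groups.

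**Figure D2:**
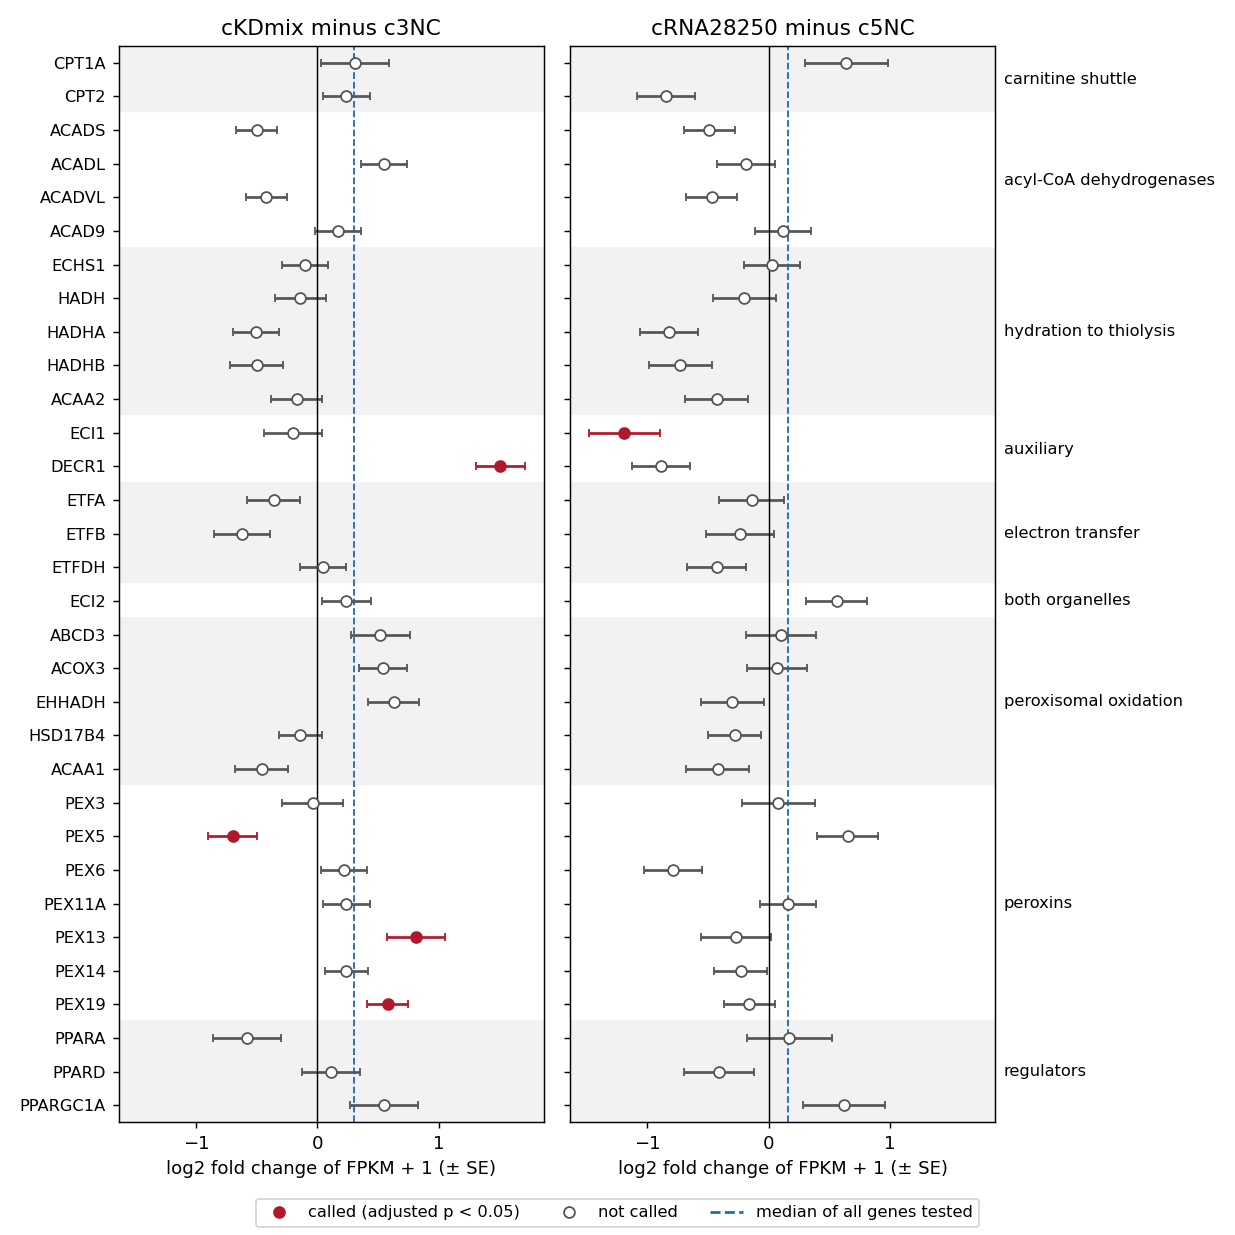
Log2 fold change of FPKM + 1 with its standard error for the 32 tested members, cKDmix minus c3NC on the left and cRNA28250 minus c5NC on the right, filled where called at an adjusted p under 0.05. The dashed line is the median of all genes tested, 0.30 on the left and 0.16 on the right. DECR1, PEX13 and PEX19 are filled to the right of 0 and PEX5 to the left of 0 in the knockdown, and ECI1 is filled to the left of 0 in the overexpression.

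Compared as classes in the knockdown, mitochondrial members had a median log2 change of −0.16 and peroxisomal members of 0.24, beside 0.30 for all genes tested, so the mitochondrial median lay 0.40 below the peroxisomal one. Of 16 mitochondrial members, 13 lay below the median of all genes, and of 12 peroxisomal members, 7 did. Both cKDmix libraries were above both c3NC libraries for 5 mitochondrial and 8 peroxisomal members, against 55.2% of all genes tested, and below them for 7 mitochondrial and 3 peroxisomal members, against 22.8% of all genes. Summed over the class, mitochondrial members came to 655.5 and 570.2 FPKM in cKDmix, against 761.0 and 719.7 FPKM in c3NC, while peroxisomal members came to 143.8 and 134.0 FPKM, against 129.8 and 133.7 FPKM. The ratio of the mitochondrial to the peroxisomal sum was 4.56 and 4.26 in cKDmix, against 5.86 and 5.38 in c3NC, and the groups did not overlap. Without HADHA, HADHB and ETFB it was 2.73 and 2.61 in cKDmix, against 3.06 and 2.85 in c3NC. No test was made over a class, because its members are not replicates.

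**Figure D3:**
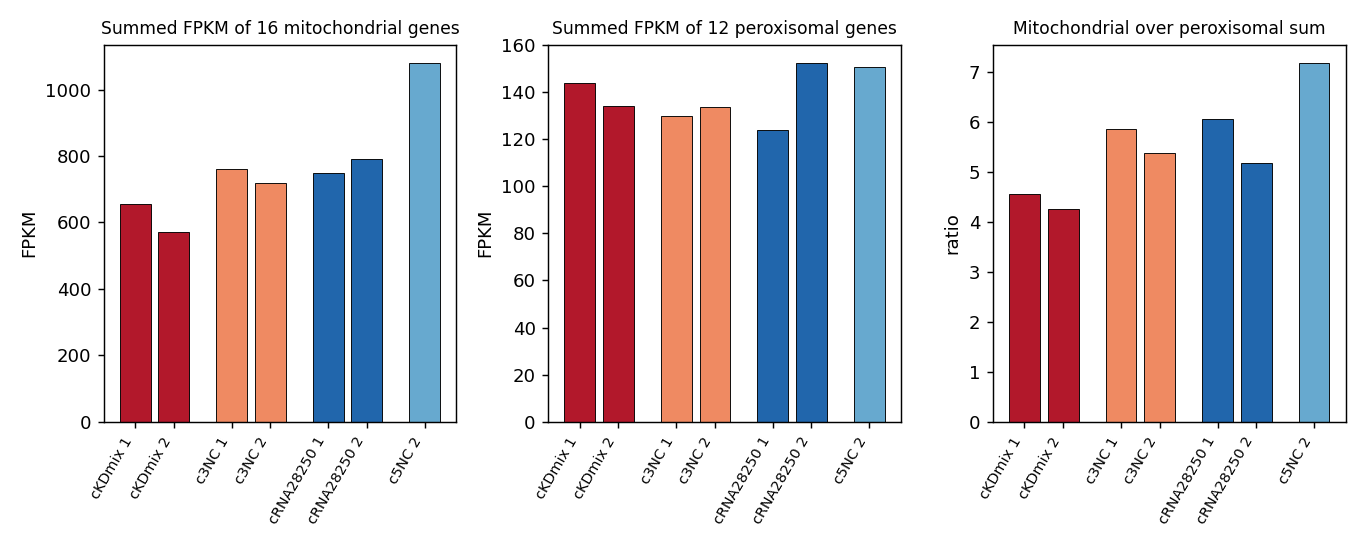
Summed FPKM of the 16 mitochondrial members (left), of the 12 peroxisomal members (middle) and their ratio (right), with 1 bar per library and no error bars because each bar is 1 library. The ratio is lowest in the cKDmix libraries, at 4.56 and 4.26, and highest in c5NC, at 7.18.

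The gap between the classes moved with abundance and with the scaling. In the knockdown, genes with a mean under 5 FPKM had a median log2 change of 0.50 over all genes tested, those from 5 to 20 FPKM of 0.37, those from 20 to 50 FPKM of 0.03 and those of 50 FPKM or more of −0.27. In the same ranges, the 5 mitochondrial members from 5 to 20 FPKM had a median of 0.17 and the 7 peroxisomal members of 0.24. The 6 mitochondrial members from 20 to 50 FPKM had a median of −0.12, beside −0.14 for HSD17B4, the 1 peroxisomal member there. The 4 peroxisomal members under 5 FPKM had a median of 0.39, a range that held 0 mitochondrial members. The 5 mitochondrial members at 50 FPKM or more had −0.50, a range that held 0 peroxisomal members. Quantile normalization, which gives every library the same distribution of levels, brought the class medians to −0.23 and −0.21, a gap of −0.02 in place of −0.40. Median ratio scaling, which multiplies each library by 1 factor, left a gap of −0.47. The part of abundance in the gap was not tested. Setting cKDmix against c5NC gave a gap of −0.73.

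**Figure D4:**
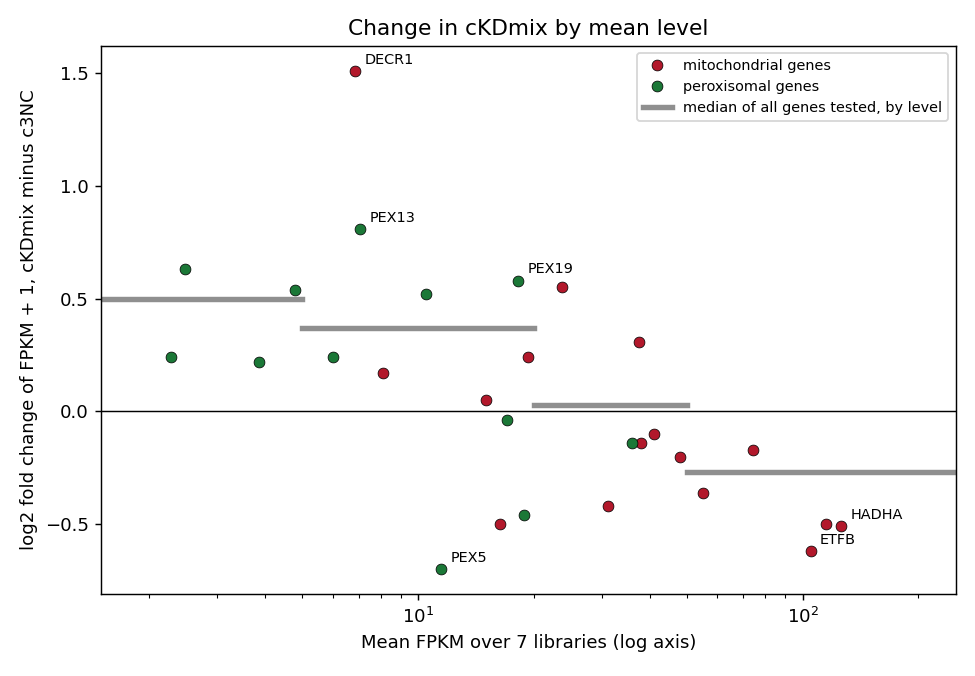
Log2 fold change of FPKM + 1 in cKDmix minus c3NC against the mean FPKM over the 7 libraries (log axis) for mitochondrial (red) and peroxisomal (green) members, 1 point per gene, with grey bars at the median of all genes tested in 4 ranges of mean level (the lowest and highest ranges run on beyond the axis). The grey bars step down from 0.50 to −0.27 as the level rises, and most peroxisomal members lie at lower levels than the mitochondrial ones. DECR1 and PEX13 lie above the bar of their range and PEX5 below it.

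Setting cRNA28250 against c5NC addresses which of these transcripts changed with overexpression. ECI1, the mitochondrial enoyl-CoA isomerase, was lower in cRNA28250 and was the only member called, 1 of 32, beside 7.62% of all genes tested and 2.55% called lower. ECI1 (NCBI Gene 102172857) stood at 47.07 and 36.01 FPKM in cRNA28250, against 95.55 FPKM in c5NC, a log2 change of −1.19 ± 0.29 (SE; limma, adjusted p = 0.0486). The remaining 4 libraries lay between 31.24 and 47.13 FPKM, so that c5NC alone was high. With c3NC as the control the log2 change was −0.03 (limma adjusted p = 0.96), and with only the cRNA28250 and c5NC libraries in the fit the adjusted p was 0.243. Without either cKDmix library it was 0.105, and without c3NC replicate 1 or 2 it was 0.0949 or 0.095. c5NC is 1 library, assumed in the fit to vary like the others, so an effect of the control and a feature of that library cannot be told apart.

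Several other mitochondrial members had their highest value in c5NC. Of the 16 tested, 10 did, beside 14.0% of all genes tested, and 3 of 12 peroxisomal members did. CPT2 had 19.36 and 15.24 FPKM in cRNA28250, against 31.80 FPKM in c5NC (log2 change −0.85 ± 0.24, limma adjusted p = 0.0731). HADHA had 128.31 and 105.52 FPKM in cRNA28250, against 206.48 FPKM in c5NC (log2 change −0.82 ± 0.24, adjusted p = 0.0823), and HADHB had 108.02 and 135.54 FPKM, against 201.59 FPKM. DECR1 had 7.30 and 7.95 FPKM in cRNA28250, against 14.97 FPKM in c5NC (log2 change −0.89 ± 0.24, limma adjusted p = 0.069). With c3NC as the control it was higher in cRNA28250 (log2 change 1.61, limma adjusted p = 0.00645), so its direction in the overexpression also depended on the control. With median ratio scaling it was called lower than c5NC (log2 change −1.06, limma adjusted p = 0.0353), as it was without either cRNA28250 library (adjusted p = 0.0408 and 0.034). In each of these 4 genes c5NC was above all 6 other libraries, and none was called in the fit of all libraries without scaling. ACADS, ETFDH and ACAA1 were also highest in c5NC, with log2 changes of −0.49, −0.43 and −0.42 (limma adjusted p = 0.207, 0.327 and 0.392).

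The library of c5NC stood apart in other lists as well. PPARG, the adipogenic nuclear receptor, was at 40.08 FPKM there and between 0.39 and 7.57 FPKM in the other 6 libraries. KRT14, a basal keratin, stood at 4.22 FPKM in c5NC and at or below 0.78 FPKM elsewhere, and ACTA2, a smooth muscle actin, at 63.5 FPKM in c5NC and between 384 and 834 FPKM elsewhere. Of 9 adipocyte markers, 7 were in the table, and their summed level was 55.7 FPKM in c5NC, of which PPARG made up 40.1, and 26.3 to 49.0 FPKM in the other libraries. Of the fibroblast markers, DPT, LUM, PDGFRA, COL1A1 and COL1A2 were lowest in c5NC, at 8.12, 757.12, 3.24, 377.23 and 898.20 FPKM. VIM was highest there, at 7643.98 FPKM, and DCN, COL3A1 and PDGFRB lay within the range of the other libraries. The part of these differences in the results on oxidation genes was not tested.

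A few members lay the other way in the overexpression. PEX5 had 12.75 and 15.98 FPKM in cRNA28250, against 8.75 FPKM in c5NC (log2 change 0.65 ± 0.25, limma adjusted p = 0.169). CPT1A had 51.95 and 29.55 FPKM in cRNA28250, against 24.75 FPKM in c5NC, where it was at its lowest of all libraries. ECI2 had 12.62 and 15.39 FPKM in cRNA28250, against 9.11 FPKM in c5NC (log2 change 0.56 ± 0.25, adjusted p = 0.231), and PPARGC1A had 0.93 and 2.10 FPKM, against 0.59 FPKM (log2 change 0.62 ± 0.34, adjusted p = 0.328). Unlike these genes, PEX6 was lower, with 2.72 and 2.27 FPKM in cRNA28250, against 5.01 FPKM in c5NC (log2 change −0.79 ± 0.24, limma adjusted p = 0.0968). Its values in cRNA28250 were its lowest of all libraries. None of these 5 genes was called. PEX3 had 14.78 and 24.19 FPKM in the replicates of cRNA28250, a spread wider than its difference from the 17.81 FPKM of c5NC.

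As classes in the overexpression, mitochondrial members had a median log2 change of −0.43 and peroxisomal members of −0.19, beside 0.16 for all genes tested. Of 16 mitochondrial members, 15 lay below the median of all genes, and of 12 peroxisomal members, 10 did. The mitochondrial sum was 749.0 and 790.4 FPKM in cRNA28250, against 1081.2 FPKM in c5NC, and the peroxisomal sum was 123.8 and 152.6 FPKM, against 150.6 FPKM. Their ratio was 6.05 and 5.18 in cRNA28250, against 7.18 in c5NC, and c3NC lay inside the cRNA28250 range. The gap between the class medians was −0.24, and 0.04 with c3NC as the control.

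**Figure D5:**
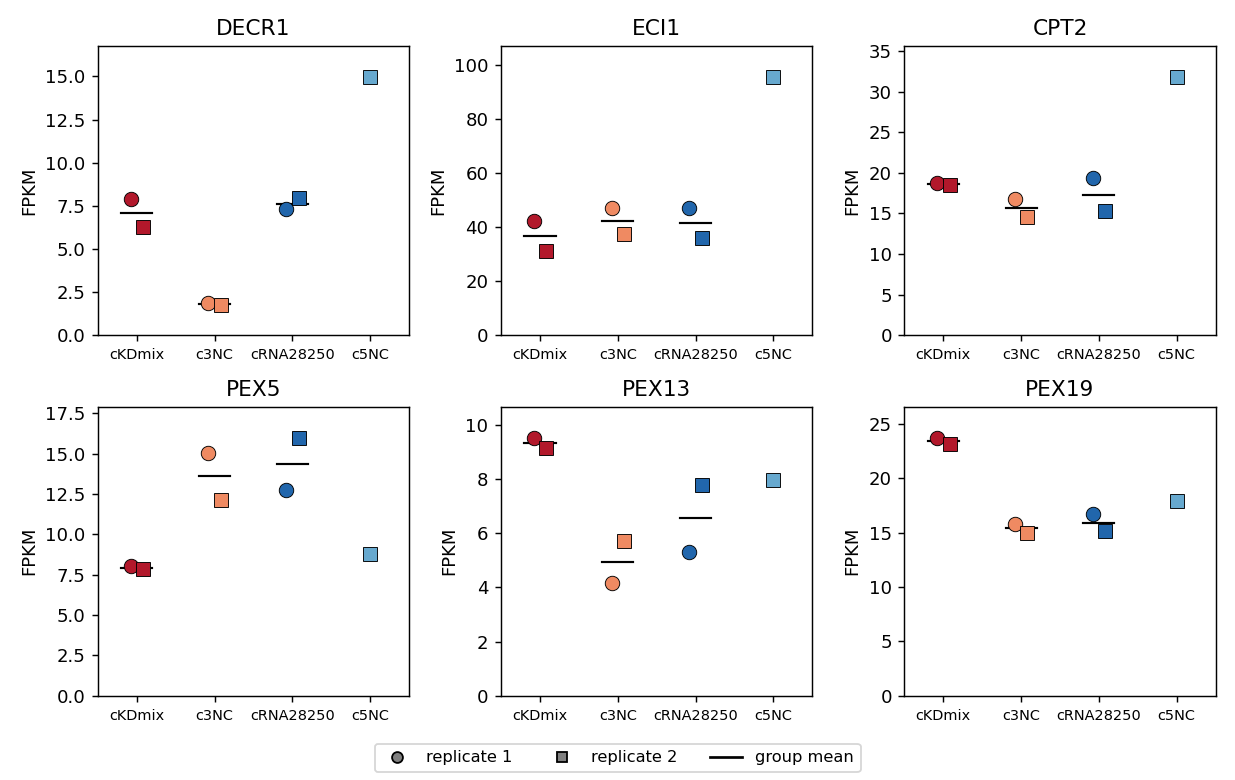
FPKM of DECR1, ECI1, CPT2, PEX5, PEX13 and PEX19 in each library (circle, replicate 1; square, replicate 2), by group, with a line at the mean of groups of 2 libraries. The c3NC libraries are low for DECR1, c5NC is high for DECR1, ECI1 and CPT2, the cKDmix libraries and c5NC are low for PEX5, and the cKDmix libraries are highest for PEX13 and PEX19.

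The knockdown and overexpression effects were compared by the difference between them, which asks whether cKDmix minus c3NC differed from cRNA28250 minus c5NC. DECR1 and PEX5 passed, 2 of 32 members, beside 7.70% of all genes tested (4.01% with a positive and 3.69% with a negative difference). The DECR1 effect was 1.51 in the knockdown and −0.89 in the overexpression, a difference of 2.40 ± 0.31 (SE; limma, adjusted p = 0.00575). The PEX5 effect was −0.70 in the knockdown and 0.65 in the overexpression, a difference of −1.35 ± 0.32 (limma, adjusted p = 0.0448). Both differences include the difference between the controls, c3NC minus c5NC, which was −2.50 for DECR1 and 0.57 ± 0.25 for PEX5 (limma adjusted p = 0.00171 and 0.271). For PEX5 the altered groups themselves stood apart, at 8.02 and 7.83 FPKM in cKDmix and 12.75 and 15.98 FPKM in cRNA28250, whereas for DECR1 they were close, at 7.88 and 6.25 FPKM and 7.30 and 7.95 FPKM. With all control libraries as 1 group, the difference was −0.78 for PEX5 and −0.10 for DECR1 (limma adjusted p = 0.129 and 0.945), and 0 members passed. With the control groups exchanged, it was −0.20 for PEX5 and −2.61 for DECR1 (limma adjusted p = 0.763 and 0.00362). For PEX5, cRNA28250 against c3NC had a log2 change of 0.07 (limma adjusted p = 0.857). Leaving out either cKDmix library ended both calls, and leaving out either c3NC library ended that of PEX5 (limma adjusted p from 0.0536 to 0.195). For PEX5 the replicate number as a block also did (adjusted p = 0.0794).

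Other genes of the same pathways, 102 in 5 lists, gave 86 tested genes. In the knockdown 17 were higher and 9 lower, beside 26.8% and 7.56% of all genes. These 26 calls became 1 without either cKDmix library, 3 without c3NC replicate 1, 9 without c3NC replicate 2, and 40 without either cRNA28250 library. Peroxisomal enzymes and transporters had 7 of 27 higher and 1 lower, other peroxins and division factors 2 of 12 higher and 1 lower, and fatty acid uptake and activation 3 of 13 higher and 1 lower. Mitochondrial oxidation had 2 of 20 higher and 3 lower, and regulators and PPAR targets 3 of 14 higher and 3 lower. The median log2 change of the mitochondrial list was −0.13, beside −0.16 for the mitochondrial members. The peroxisomal enzyme list had a median of 0.22, below the 0.52 of the 5 members of peroxisomal transport and oxidation. The list of other peroxins and division factors had 0.16, beside 0.24 for the 7 peroxins among the members.

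Of the genes in these lists called higher in cKDmix, the 6 with the smallest p were ACSL5, DNM1L, FAR1, PPARG, ACOX2 and AGPS. ACSL5, a long-chain acyl-CoA synthetase, had 32.73 and 32.26 FPKM in cKDmix, against 4.13 and 4.25 FPKM in c3NC (log2 change 2.69 ± 0.18, limma adjusted p = 0.000383). Like DECR1, it was low in c3NC alone, with 44.43 and 52.85 FPKM in cRNA28250 and 24.33 FPKM in c5NC. DNM1L, the GTPase that divides mitochondria and peroxisomes, had 33.20 and 38.61 FPKM in cKDmix, against 13.02 and 12.98 FPKM in c3NC (log2 change 1.39 ± 0.18, adjusted p = 0.00418). FAR1, which makes the fatty alcohols of ether lipids, had 71.66 and 80.63 FPKM in cKDmix, against 21.23 and 25.90 FPKM in c3NC (log2 change 1.66 ± 0.22, limma adjusted p = 0.00438). PPARG, ACOX2, a peroxisomal oxidase, and AGPS, a peroxisomal enzyme of ether lipid synthesis, followed with log2 changes of 1.80, 1.30 and 0.99 (limma adjusted p = 0.00637, 0.00689 and 0.0113). For these 6 genes the groups did not overlap, as was so with higher values for 55.2% of all genes tested. ACSL5 kept its call with each library left out in turn, and DNM1L and FAR1 lost theirs without either cKDmix library. ACSL5 lost its call in 2 of 17 alternative fits. Its 32.73 and 32.26 FPKM in cKDmix lay much nearer to the 24.33 FPKM of c5NC than to c3NC, so the size of its change depended on the control. PPARG had 3.97 and 4.12 FPKM in cKDmix, above c3NC at 0.50 and 0.39 FPKM but below c5NC at 40.08 FPKM. Its direction in the knockdown therefore depended on the control.

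Lower in cKDmix were DECR2, PCCA, ACAD8, CD36, ANGPTL4 and ACAT1. DECR2, the peroxisomal counterpart of DECR1, had 8.22 and 6.76 FPKM in cKDmix, against 17.61 and 18.58 FPKM in c3NC (log2 change −1.17 ± 0.18, limma adjusted p = 0.00579). DECR1 was higher and DECR2 lower against c3NC, but against c5NC both were lower in cKDmix, by log2 changes of −0.99 and −2.25 (limma adjusted p = 0.0267 and 0.00121). CD36, a fatty acid uptake receptor, had 33.16 and 30.88 FPKM in cKDmix, against 62.89 and 71.57 FPKM in c3NC (log2 change −1.05 ± 0.20, limma adjusted p = 0.00958). In c5NC, CD36 stood at 37.42 FPKM, near the cKDmix values, and its knockdown call was lost in 6 of 17 alternative fits. ACAT1, the mitochondrial acetoacetyl-CoA thiolase, had 41.91 and 32.62 FPKM in cKDmix, against 101.39 and 129.82 FPKM in c3NC (log2 change −1.61 ± 0.35, limma adjusted p = 0.0139). PCCA, a subunit of propionyl-CoA carboxylase, ACAD8, a dehydrogenase of valine breakdown, and ANGPTL4, an inhibitor of lipoprotein lipase, had log2 changes of −1.02, −0.94 and −1.07 (limma adjusted p = 0.0082, 0.00928 and 0.013).

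In the overexpression 7 of the 86 were higher and 5 lower, beside 5.07% and 2.55% of all genes tested. These 12 calls became 3 without either cKDmix library, 4 without either c3NC library and 23 without cRNA28250 replicate 1. Of the 7, 4 were acyl-CoA synthetases, with log2 changes of 1.05 for ACSL3, 0.97 for ACSL5, 0.90 for ACSL4 and 1.0 for ACSL1 (limma adjusted p = 0.0341, 0.039, 0.0464 and 0.0468). All 4 lost their calls with quantile normalization, with median ratio scaling, with the replicate number as a block, and without any cKDmix or c3NC library (limma adjusted p from 0.0524 to 0.124). With c3NC as the control, ACSL3 and ACSL1 had log2 changes of −0.04 and 0.34 and were not called. DNM1L had 34.47 and 40.45 FPKM in cRNA28250, against 13.01 FPKM in c5NC (log2 change 1.45 ± 0.22, limma adjusted p = 0.0105), so it was higher than the control in both altered groups, and the controls all lay near 13.0 FPKM. SLC25A17, a carrier of cofactors in the peroxisomal membrane, had 36.23 and 28.73 FPKM in cRNA28250, against 11.12 FPKM in c5NC (log2 change 1.46 ± 0.23, adjusted p = 0.011). DECR2 had 14.07 and 14.36 FPKM in cRNA28250, against 39.37 FPKM in c5NC (log2 change −1.41 ± 0.22, limma adjusted p = 0.0111). PPARG, its partner RXRA, ACSF3, a mitochondrial malonyl-CoA synthetase, and ANGPTL4 were also lower, with log2 changes of −2.69, −1.25, −1.07 and −1.15 (limma adjusted p = 0.00529, 0.0217, 0.0387 and 0.0475). Of the 86 genes, DNM1L, ACSL4 and ACSL5 were called higher in both comparisons, ACSL4 and ACSL5 with the losses in the overexpression given above. DNM1L kept its call in the overexpression with both scalings, the block, the other control and each library left out that could be, and lost it with only the groups compared in the fit (limma adjusted p = 0.119). ACSL4 had 65.48 and 66.96 FPKM in cKDmix, against 34.61 and 38.57 FPKM in c3NC, and 66.52 and 72.53 FPKM in cRNA28250, against 36.78 FPKM in c5NC. The control levels of DNM1L and ACSL4 were close to each other, whereas those of ACSL5 were not. With c3NC as the control, SLC25A17 and DECR2 in cRNA28250 had log2 changes of 0.16 and −0.33 (limma adjusted p = 0.626 and 0.317).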

How the data were processed

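RNA-seq of 7 goat mammary cell libraries was deposited by the authors as FPKM per gene and library, rounded to 0.01, per the file headers. How reads were aligned and counted, on which genome build, and whether libraries were scaled to each other is not given in the sources used here. No counts can be read from the values, so the depth and its counting error are unknown. Gene identifiers were matched to symbols in the RefSeq gene table of goat assembly ARS 1.2, where 17007 matched and 367 did not.

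Values were tested on log2(FPKM + 1) with limma 3.58.1 in R 4.3.3 (4 group means over all 7 libraries, variance trend, two-sided, 3 residual and 4.66 prior degrees of freedom). Genes needed 1 FPKM in 2 libraries, p-values were adjusted by the Benjamini-Hochberg method over all 12180 genes, and a call means an adjusted p under 0.05. Tested were the knockdown (cKDmix minus c3NC), the overexpression (cRNA28250 minus c5NC), their difference, and the controls (c3NC minus c5NC). Scaling, filter, pseudocount, variance model, control and left-out libraries were varied.

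Members and lists were chosen with earlier results of these data known. The text gives in full the called members and, per class, those with the smallest p, and of the other pathway genes up to 6 called per direction with the smallest p. Ranges of mean level were chosen after the values were seen. Targeting signals and promoter motifs were not analysed here.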

Additional observations from a re-analysis of the deposited data

Results flagged for a closer look

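The effect in cKDmix minus c3NC was set against that in cRNA28250 minus c5NC by limma's test of the difference. P-values were adjusted by Benjamini-Hochberg over all genes tested. The difference was called for 2 of 32 members and 5 of 86 other pathway genes, beside 7.70% of all genes tested. Only called genes already named above were flagged, 6 in all. The 1 called gene of the wider mitochondrial oxidation list was not among them. Among the members, the difference between the effects was 2.40 for DECR1 (log2 change 1.51 in the knockdown and −0.89 in the overexpression, adjusted p = 0.00575) and −1.35 for PEX5 (−0.70 and 0.65, adjusted p = 0.0448). Among the other pathway genes it was 4.49 for PPARG (1.80 and −2.69, limma adjusted p = 0.00234) and 1.72 for ACSL5 (2.69 and 0.97, adjusted p = 0.0136). It was −2.04 for CD36 (−1.05 and 0.99, limma adjusted p = 0.0114) and −1.68 for SLC25A17 (−0.23 and 1.46, adjusted p = 0.0165). The controls differed for several of these genes, with c3NC minus c5NC at −4.83 for PPARG, −2.50 for DECR1, −2.29 for ACSL5 and 1.29 for SLC25A17 (limma adjusted p = 0.000693, 0.00171, 0.0016 and 0.0192). Without any 1 of the cKDmix or c3NC libraries, the differences of PEX5, ACSL5, CD36 and SLC25A17 were not called (limma adjusted p from 0.0546 to 0.195), nor was that of DECR1 without a cKDmix library (0.0536 and 0.056). With the control groups exchanged the CD36 difference was −0.38 and with the controls as 1 group −1.21 (limma adjusted p = 0.523 and 0.0773). The part of the single c5NC library in these differences was not tested.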

How the results depend on the processing

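Of 12180 genes, 4191 were called in the knockdown, 928 in the overexpression, 938 in the difference and 707 between the controls, and of the members 4, 1, 2 and 1. With only the groups compared in the fit, the gene counts were 6390 (knockdown), 231 (overexpression) and 1325 (controls), and the member counts 14, 0 and 5. Of the 14 in the knockdown, DECR1, PEX13, PEX19, EHHADH, ACOX3, ABCD3, ACADL and PPARGC1A were higher. HADHA, HADHB, ETFB, ACADS, ACADVL and PEX5 were lower. With the 3 control libraries as 1 group, 191 genes were called in the overexpression and 465 in the difference. The member counts were then 1, 0 and 0 in the knockdown, overexpression and difference. With the control groups exchanged, the gene counts were 2655 (knockdown) and 525 (overexpression). The member counts were then 6, 1 and 3 in the knockdown, overexpression and difference. Against c5NC, cKDmix was called lower for HADHA, HADHB, ECI1, ACADS and DECR1 and higher for ECI2. Quantile normalization called 2729 genes in the knockdown and median ratio scaling 9 members there and 2 in the overexpression. Neither the fit with no filter nor that with no variance trend called a member in the overexpression (0 and 0), and the fit with no filter called 1 in the difference. In the overexpression these scalings moved the share of higher calls from 66.6% to 51.7% (quantile) and 53.5% (median ratio). The labels do not say whether the replicate numbers pair the libraries. Replicate differences correlated over genes at 0.111 (cKDmix with c3NC), −0.152 (cKDmix with cRNA28250) and 0.283 (c3NC with cRNA28250). These values are mixed in sign and cannot decide whether the libraries are paired. With the number as a block, 615 genes and 1 member were called in the difference and 443 genes and 2 members between the controls. Leaving out 1 library gave 45 to 6394 genes and 0 to 14 members in the knockdown, 308 to 2904 and 0 to 7 in the overexpression, 93 to 3430 and 0 to 5 in the difference, and 192 to 1879 and 1 to 6 between the controls; a lone remaining library is assumed to vary like the other groups. The mitochondrial minus peroxisomal median in the knockdown, −0.40, was −0.02 with quantile normalization and −0.73 with the other control, and lay from −0.53 to −0.27 with 1 library left out. Several log2 changes turned sign with the control groups exchanged. In the knockdown these were DECR1 (−0.99), CPT2 (−0.74), PPARG (−3.03), ETFDH (−0.26), PEX6 (−0.09) and PEX11A (−0.08), and in the overexpression DECR1 (1.61), HADHB (0.19), CPT2 (0.13), ECI2 (−0.36), ACSL3 (−0.04), PPARG (2.14) and ACSF3 (0.07). In the difference they were DECR1 (−2.61), SLC25A17 (0.90), ACSL5 (−2.85) and PPARG (−5.17). With the controls as 1 group, CPT2 and ETFDH in the knockdown were at −0.09 and −0.05, DECR1, ECI2 and PPARG in the overexpression at 0.78, −0.05 and 0.53, and DECR1, ACSL5 and PPARG in the difference at −0.10, −0.56 and −0.34. In the knockdown, quantile normalization turned CPT2 (−0.0024), ACAD9 (−0.25), ETFDH (−0.23), PEX6 (−0.28), PEX11A (−0.26), PEX14 (−0.23) and PPARD (−0.34), and median ratio scaling CPT2 (−0.09), ECI2 (−0.09), CPT1A (−0.03), ACAD9 (−0.14), ETFDH (−0.27), PEX6 (−0.06), PEX14 (−0.06) and PPARD (−0.19), besides PEX3 in the overexpression (−0.09). With 1 library left out, small changes crossed 0 for ECHS1 (−0.22 to 0.02), ECI1 (−0.41 to 0.01), ETFDH (−0.11 to 0.22) and PEX3 (−0.14 to 0.06) in the knockdown and PEX3 (−0.25 to 0.42) in the overexpression. The calls of the other pathway genes in the overexpression, 12, were 6 with quantile normalization, 6 with the block and 7 with the other control. The cause of these shifts was not tested. The depth is unknown, the groups hold 1 or 2 libraries, and the authors' FPKM carry no counting error, so small changes could not be resolved.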
